A study of Mus musculus with 14 samples.

Results

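The levels of 10 mouse genes for the PPAR nuclear receptors and for fatty acid handling were followed in bone marrow-derived macrophages exposed to tumour material: Pparg, Ppard, Angptl4, Lpl, Fabp4, Fabp5, Plin2, Hilpda, Cpt1a and Pdk4. They were chosen by name with their levels in all 4 groups of these arrays already known. Their probes were found by RefSeq accession, giving 13 of the 55634 probes used, and 9 of the 10 genes had a probe bright enough to be among the 15835 genes tested. Because those levels took part in the choice, the differences of these genes between groups are given as a description, with standard errors and no p-value.

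The macrophages came from 8-week-old female C57BL/6 mice, all LysM-Double-Cre, and are called transgenic where they carried the TFEB transgene and wild-type where they did not. The LysM promoter drives Cre in myeloid cells, so the controls carry the Cre as well, and TFEB is a transcription factor of lysosomal and autophagy genes. Marrow cells were differentiated for 1 week with M-CSF, replated, and kept for 24 h in DMEM alone (control) or in DMEM with medium conditioned by EO771 cells, a mouse mammary tumour line, plus tumour lysate (tumour material). There were 14 single-colour arrays of 11 replicates: 3 wild-type control, 3 wild-type tumour, 3 transgenic control and 2 transgenic tumour replicates. The first replicate of that last group is not analysed here. Replicate 3 had a repeat array in every group except the transgenic controls. Both arrays count as 1 replicate in replicate means, group means and SDs. The fit behind the standard errors and p-values took all 14 arrays, with repeat arrays as a block. The correlation within a block was 0.072, so repeat arrays counted there nearly as separate samples. The series calls its replicates biological without saying whether each is a separate animal or culture, so the errors measure the spread between these samples, which may be technical.

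PPAR-gamma and PPAR-delta are nuclear receptors that pair with retinoid X receptors and are activated by fatty acids and their derivatives. They bind repeats of the sequence AGGTCA near genes that take up, bind, store and burn fatty acids, and Angptl4, Fabp4, Plin2, Cpt1a and Pdk4 are textbook targets. In macrophages PPAR-gamma is known for its part in lipid uptake and alternative activation.

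Levels are log2 ratios of a probe's signal to the 75th percentile of its array, so 0 equals that percentile and a step of 1 is a doubling. Between 35.5% and 40.2% of spots were well above background and 0 were saturated. Arrays within a group correlated at 0.979 or more, except transgenic control replicate 1, which reached 0.957 and 0.959 with the other transgenic controls. The 3 arrays in slide column 4 stood apart in the size of the spatial trend that the scanner software removed (root mean square 0.259, 0.253 and 0.331, against 0.0964 to 0.126 on the other arrays). All are transgenic, replicates 1 and 2 of the controls and the second hybridisation of tumour replicate 3, so without column 4 the transgenic controls are 1 array. The arrays sat on 2 slides, with all transgenic tumour arrays on slide 2. Each difference therefore comes from a fit with a slide term and can depart from the difference of the group means. Slide 2 held only 1 wild-type control, 1 wild-type tumour and 1 transgenic control array. Its wild-type arrays were the repeat arrays of replicate 3, whose first arrays were on slide 1. Values within slide 2 thus rest on 1 array of each of these groups and are no independent check of the wild-type response. Tfeb had mean levels of 0.88 ± 0.08 (SD, n = 3) in wild-type and 1.17 ± 0.29 (SD, n = 3) in transgenic controls, which overlap within their spread, and of -0.68 ± 0.06 (SD, n = 3) and -0.07 ± 0.10 (SD, n = 2) with tumour material. No source used here says if the Tfeb probe detects the transgene, so these levels do not check it.

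The labelled cell type was checked against its markers. None of 12 macrophage markers was below background on every array. Their summed level (signal over the 75th percentile) ran from 2250 to 2750 in wild-type and 1860 to 2160 in transgenic controls. With tumour material it ran from 2730 to 2970 in wild-type and 2400 to 2500 in transgenic cells. Lyz2 was dim, well above background on 1 of 4 wild-type control, 3 of 4 wild-type tumour and no transgenic arrays. Adgre1, Itgam, Fcgr1, Cd14 and C1qa rose and Mertk and Mrc1 fell with tumour material in wild-type cells (limma, adjusted p under 0.05). By the same test Itgam, Cd14 and C1qa were lower in transgenic than in wild-type cells in both media, and no macrophage marker was higher. Of 8 adipocyte markers 7 were below background on every array, Adipoq and Plin1 among them, and so were 9 of 10 epithelial or mammary tumour markers, Epcam and Krt8 among them. The tenth, Cldn7, was well above background on 0 of 4 wild-type control, 3 of 4 wild-type tumour, 1 of 3 transgenic control and 1 of 3 transgenic tumour arrays, with means of -2.87, -1.91, -2.58 and -2.15. Summed neutrophil and precursor markers (10 of 11 on the array) ran from 232 to 247 in wild-type controls, 177 to 569 in transgenic controls, 53.5 to 90.5 in wild-type and 31.8 to 35.5 in transgenic cells with tumour material. Osteoclast markers ran from 110 to 140, 151 to 336, 264 to 300 and 488 to 563 in the same order. Their sum was led by Acp5, with means of 6.17, 6.91, 7.9 and 8.84 in that order, and the list was split. Acp5 and Mmp9 rose and Dcstamp and Atp6v0d2 fell with tumour material in wild-type cells (limma, adjusted p under 0.05), with a median of -0.42. Of these only Atp6v0d2 did not pass in transgenic cells, where the median was 0.28. Fibroblast or stroma markers ran, again in that order, from 1.5 to 23.0, 1.01 to 9.89, 33.3 to 43.6 and 7.85 to 8.93. Only Dcn and Lum rose by the same test in wild-type cells, where the median of those tested was -0.1. Lum alone rose in transgenic cells, and no marker of this list fell in either genotype. Between genotypes, Mpo, Elane, Ctsg and Prtn3 were higher and Col3a1 lower in transgenic controls by the same test. With tumour material Ctsk and Atp6v0d2 were higher and S100a8, S100a9 and Lum lower in transgenic cells. Dendritic, endothelial and lymphocyte markers lay within 5.04 to 18.3, 10.6 to 15.5 and 23.2 to 34.5 over all replicates. The part of these markers in the differences below was not tested, and in RNA of whole cultures fewer cells of a type and less RNA per cell cannot be told apart.

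In wild-type cells with tumour material, Pparg, Angptl4, Fabp4 and Lpl were lower and Hilpda, Ppard and Plin2 were higher than in control medium. Fabp5 and Cpt1a differed by less than their standard errors, though Fabp5 was at -0.37 with quantile scaling. In transgenic cells Pparg and Angptl4 were again lower and Ppard and Hilpda again higher, but Fabp4 was slightly higher and Lpl was near its control level. Plin2 and Cpt1a were lower there, at -0.38 (SE 0.18) and -0.63 (SE 0.25), without overlap of replicates. The Plin2 differences thus had opposite signs in the genotypes, with overlap of replicates in wild-type cells. The largest difference in wild-type cells was that of Hilpda, 16.9-fold, and in transgenic cells that of Angptl4, 34.1-fold, or -3.73 in place of -5.09 on the log2 scale with normexp, another background correction. Pdk4 was not well above background on any of the 14 arrays.

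**Figure D1:**
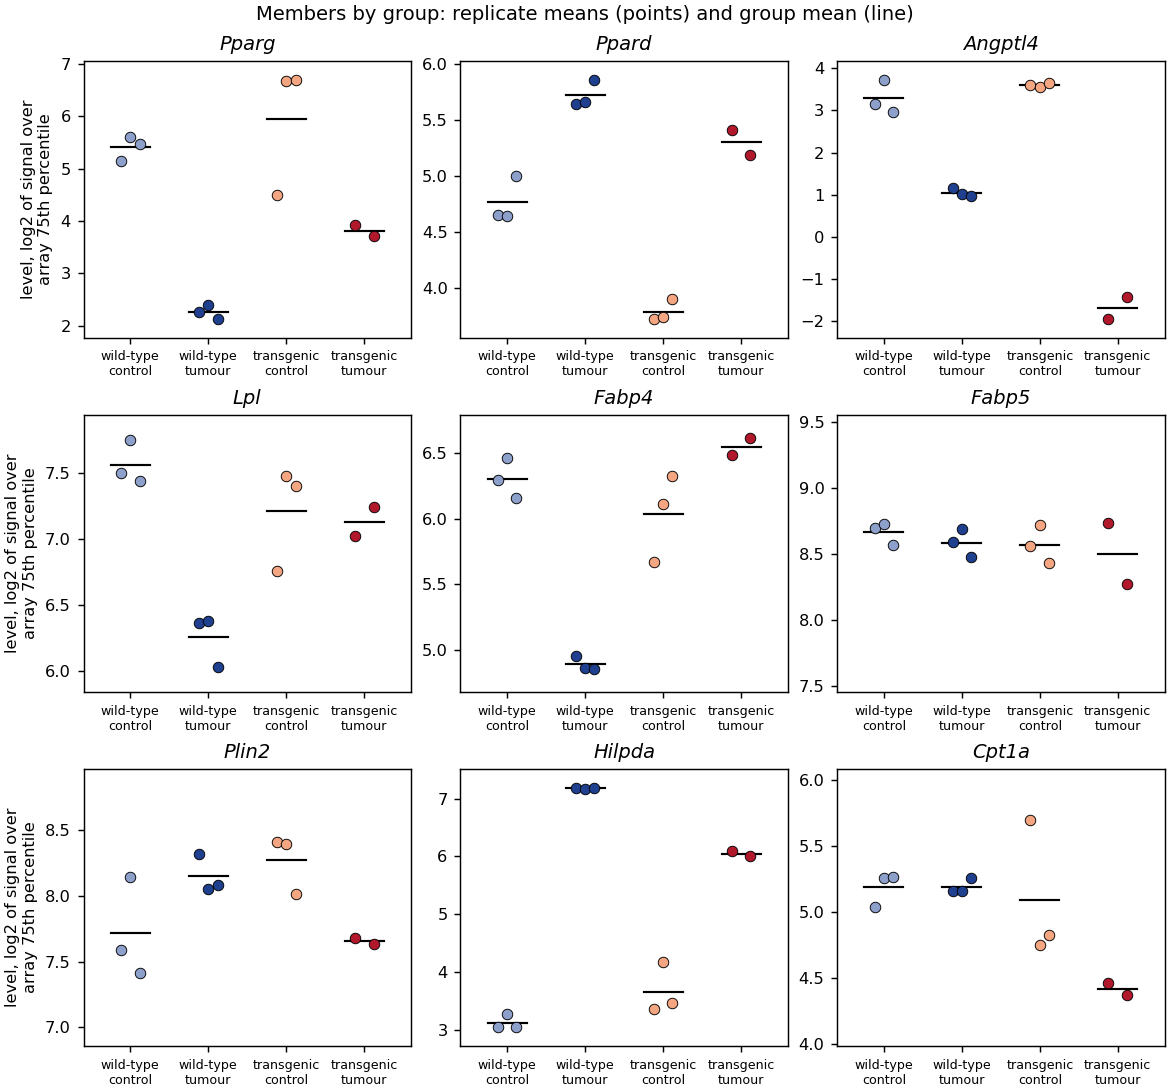
Levels of the 9 measured genes in the 4 groups (y axis: log2 level relative to the 75th percentile of each array, brightest probe, with a range of its own in each panel), drawn as replicate means (points) and group means (lines). Pparg was lowest in wild-type cells with tumour material, at 2.12 to 2.39, and Angptl4 in transgenic cells with tumour material, at -1.96 and -1.42.

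Array values follow in the order of the replicates, and where replicate 3 has a repeat array its 2 values come last. Overlap between groups is judged on replicate means. Pparg encodes PPAR-gamma. It stood at 5.15, 5.60, 5.43 and 5.51 in wild-type controls, at 2.26, 2.39, 2.12 and 2.12 in wild-type cells with tumour material, at 4.50, 6.67 and 6.70 in transgenic controls and at 3.92, 3.92 and 3.50 in transgenic cells with tumour material. The controls of both genotypes overlapped, both lay above the transgenic tumour replicates, and these lay above the wild-type tumour replicates.

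The Pparg difference with tumour material was -3.19 (SE 0.39) in wild-type cells, 9.16-fold lower, with -3.14 within slide 1 and -3.38 within slide 2. In transgenic cells it was -2.39 (SE 0.50), with -2.92 within slide 2. With tumour material the transgenic level was higher by 1.31 (SE 0.50), with 1.66 within slide 2 and 0.85 without wild-type tumour replicate 3. In control medium the genotypes differed by 0.51 (SE 0.41; 0.19 and 1.19 within slides 1 and 2), a value that turned on single replicates of the transgenic controls: it was 1.26 without replicate 1, the array at 4.50, and 0.04 without replicate 2. Without slide column 4 it was 1.27.

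Ppard encodes PPAR-delta, a more widely expressed receptor. It stood at 4.65, 4.64, 4.96 and 5.05 in wild-type controls, at 5.64, 5.66, 5.84 and 5.88 in wild-type cells with tumour material, at 3.72, 3.74 and 3.90 in transgenic controls and at 5.41, 5.42 and 4.97 in transgenic cells with tumour material. The replicate means of the 4 groups did not overlap, in the order wild-type tumour, transgenic tumour, wild-type control, transgenic control. Ppard thus differed in the opposite direction to Pparg with tumour material, by 0.93 (SE 0.13; 0.97 and 0.82 within slides 1 and 2) in wild-type and 1.35 (SE 0.17; 1.36 within slide 2) in transgenic cells. Transgenic cells had less of it in both media, at -1.05 (SE 0.14; -1.02 and -1.15 within slides) in control medium and -0.64 (SE 0.17; -0.61 within slide 2) with tumour material. The last value was -0.40 without transgenic tumour replicate 3 and -0.42 without slide column 4.

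Angptl4 encodes a secreted inhibitor of lipoprotein lipase. It stood at 3.16, 3.73, 3.05 and 2.86 in wild-type controls, at 3.61, 3.55 and 3.64 in transgenic controls and at 1.16, 1.02, 1.01 and 0.92 in wild-type cells with tumour material. In transgenic cells with tumour material it was at -1.96, -1.28 and -1.56, with scanner signals of 24.2, 42.4 and 39.1 that were still well above background, against 166 to 220 on the wild-type tumour arrays. The controls of both genotypes overlapped, and the tumour groups lay below them and apart from each other.

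The Angptl4 difference with tumour material was -2.18 (SE 0.18; -2.25 and -1.94 within slides) in wild-type and -5.09 (SE 0.24; -5.25 within slide 2) in transgenic cells. Between genotypes it was -2.50 (SE 0.23; -2.52 within slide 2) with tumour material and 0.41 (SE 0.19; 0.27 and 0.78 within slides) in control medium, the latter 0.17 without wild-type control replicate 3. The sizes depend on how background is taken off such dim spots: with normexp the transgenic response was -3.73, the genotype difference was -0.87 with tumour material and 1.04 in control medium, and the difference between the 2 responses was -1.91 in place of -2.91.

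Lpl encodes lipoprotein lipase, which frees fatty acids from triglyceride, and has 2 probes. The brighter one stood at 7.50, 7.75, 7.54 and 7.34 in wild-type controls, at 6.36, 6.38, 5.99 and 6.08 in wild-type cells with tumour material, at 6.76, 7.48 and 7.40 in transgenic controls and at 7.02, 7.08 and 7.39 in transgenic cells with tumour material. The wild-type tumour replicates lay below all others, and the transgenic controls overlapped both the wild-type controls and the transgenic tumour replicates. The difference with tumour material was -1.33 (SE 0.18; -1.35 and -1.26 within slides) in wild-type and -0.02 (SE 0.23; -0.24 within slide 2) in transgenic cells. The transgenic value was -0.26 with quantile scaling, -0.35 without slide column 4 and 0.28 without transgenic control replicate 3. In control medium the genotypes differed by -0.32 (SE 0.19), or -0.04 without transgenic control replicate 1 and -0.06 without slide column 4. With tumour material the transgenic level was higher by 0.99 (SE 0.23; 1.09 within slide 2).

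The dimmer Lpl probe gave the same order of group means, at 6.86, 6.60, 6.01 and 4.84 for wild-type control, transgenic control, transgenic tumour and wild-type tumour. Its differences were -2.09 (SE 0.34) in wild-type cells, -0.55 (SE 0.44) in transgenic cells and 1.31 (SE 0.44) between the genotypes with tumour material. Transgenic control replicate 1 was the lowest of its group on both probes.

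Fabp4 encodes the fatty acid binding protein of adipocytes and macrophages. It stood at 6.29, 6.46, 6.18 and 6.13 in wild-type controls, at 4.96, 4.87, 4.80 and 4.91 in wild-type cells with tumour material, at 5.67, 6.11 and 6.32 in transgenic controls and at 6.48, 6.59 and 6.63 in transgenic cells with tumour material. The wild-type tumour replicates were the lowest, the controls of both genotypes overlapped, and the transgenic tumour replicates were the highest by a narrow margin. The difference with tumour material was -1.38 (SE 0.14; -1.43 and -1.22 within slides) in wild-type and 0.48 (SE 0.18; 0.25 within slide 2) in transgenic cells. The transgenic value was 0.22 without slide column 4, 0.28 with quantile scaling and 0.76 without transgenic control replicate 3. With tumour material the transgenic level was higher by 1.62 (SE 0.18; 1.66 within slide 2), which is 3.07-fold. In control medium the genotypes differed by -0.24 (SE 0.15), with -0.42 and 0.18 within slides 1 and 2, 0.03 without slide column 4 and -0.03 without transgenic control replicate 1.

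Fabp5, the fatty acid binding protein of skin and macrophages, had the flattest levels of the 9 genes. Its group means were 8.67 ± 0.08 (SD, n = 3) in wild-type controls, 8.59 ± 0.11 (SD, n = 3) in wild-type cells with tumour material, 8.57 ± 0.14 (SD, n = 3) in transgenic controls and 8.50 ± 0.33 (SD, n = 2) in transgenic cells with tumour material. All 4 groups overlapped, and the difference with tumour material was -0.08 (SE 0.14) in wild-type and 0.00 (SE 0.19) in transgenic cells. These were -0.37 and -0.27 with quantile scaling and -0.41 and -0.28 with normexp, and the transgenic value was 0.29 without transgenic tumour replicate 3 and 0.21 without slide column 4.

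**Figure D2:**
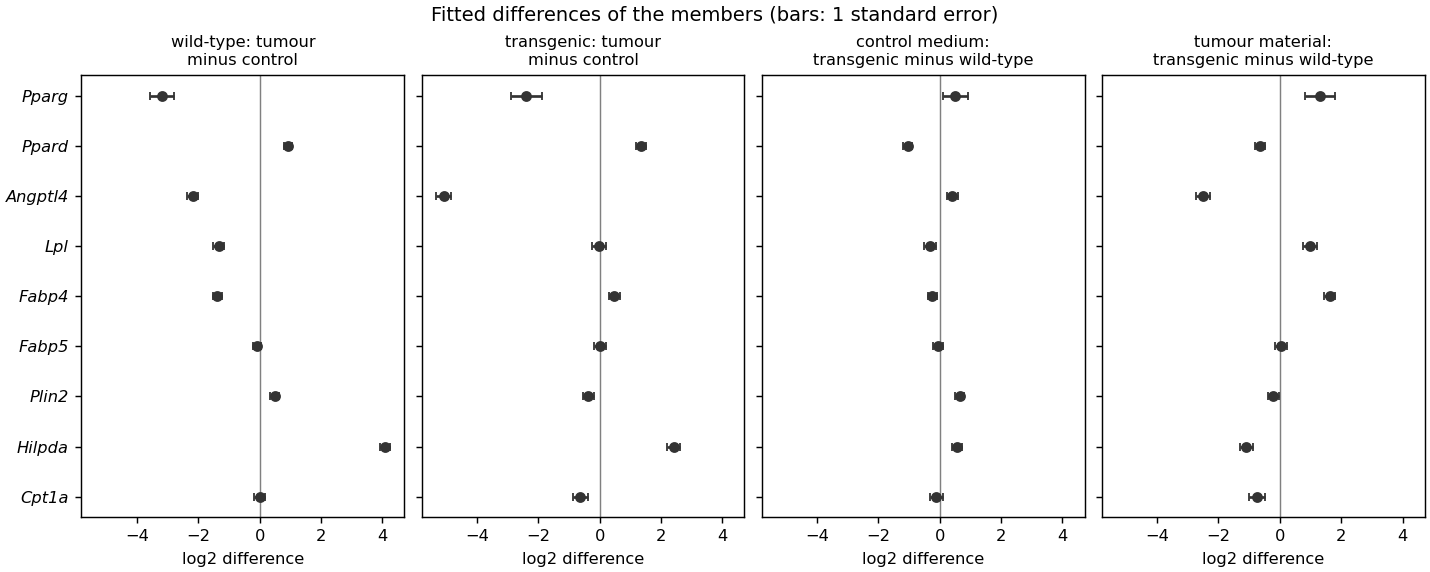
Fitted log2 differences of the 9 measured genes (x axis) in 4 comparisons, with bars of 1 standard error. Hilpda at 4.08 is the largest in wild-type cells and Angptl4 at -5.09 the largest in transgenic cells, while Fabp4 is at -1.38 in wild-type and 0.48 in transgenic cells.

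Plin2 encodes perilipin 2, the coat protein of macrophage lipid droplets. It stood at 7.59, 8.14, 7.51 and 7.32 in wild-type controls, at 8.32, 8.05, 8.23 and 7.94 in wild-type cells with tumour material, at 8.41, 8.39 and 8.01 in transgenic controls and at 7.68, 7.58 and 7.69 in transgenic cells with tumour material. The wild-type controls were spread widely enough to overlap every other group, and the transgenic tumour replicates lay below both the wild-type tumour and the transgenic control replicates. The difference with tumour material was 0.49 (SE 0.14; 0.45 and 0.62 within slides) in wild-type and -0.38 (SE 0.18; -0.36 within slide 2) in transgenic cells, or 0.24 and -0.67 with quantile scaling. In control medium the transgenic level was higher by 0.65 (SE 0.15; 0.65 and 0.69 within slides), or 1.11 with normexp. With tumour material the genotypes differed by -0.21 (SE 0.18), which turned to 0.26 with normexp. The transgenic response minus the wild-type one was -0.87 (SE 0.22), or -0.84 with normexp.

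Hilpda encodes a small lipid droplet protein that inhibits adipose triglyceride lipase and is a known hypoxia target. The brighter of its 2 probes stood at 3.04, 3.27, 3.04 and 3.07 in wild-type controls, at 7.18, 7.17, 7.15 and 7.23 in wild-type cells with tumour material, at 3.35, 4.17 and 3.46 in transgenic controls and at 6.09, 6.11 and 5.89 in transgenic cells with tumour material. No groups overlapped on this probe, and the tumour groups lay far above the controls. The difference with tumour material was 4.08 (SE 0.16; 4.05 and 4.16 within slides) in wild-type and 2.42 (SE 0.21; 2.57 within slide 2) in transgenic cells, the latter 5.37-fold. With tumour material the transgenic level was lower, at -1.09 (SE 0.21; -1.20 within slide 2).

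The dimmer Hilpda probe gave 4.07 (SE 0.17), 2.50 (SE 0.22) and -1.32 (SE 0.22) for the same 3 differences. In control medium the probes parted: the genotypes differed by 0.56 (SE 0.17) without overlap on the brighter probe, or 0.30 without transgenic control replicate 2 and 0.32 without slide column 4, and by 0.26 (SE 0.18) with overlap on the dimmer one.

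The promoters of Hilpda and Plin2 are shown because both droplet genes were higher with tumour material in wild-type cells, and those of Ppard and Pparg because the receptors differed in opposite directions. The sequences are RefSeq windows on GRCm38.p6 from 250 bases before to 50 after a start site, 5' to 3' on the gene's strand: Hilpda at chr6:29272376-29272675 (plus strand), Plin2 at chr4:86670010-86670309 (minus strand), Ppard at chr17:28232504-28232803 (plus strand) and Pparg at chr6:115360894-115361193 (plus strand). Capitals mark matches on either strand to AGGTCA, the unit of the PPAR site, and to ACGTG and GCGTG, the cores of hypoxia response elements.
Hilpda: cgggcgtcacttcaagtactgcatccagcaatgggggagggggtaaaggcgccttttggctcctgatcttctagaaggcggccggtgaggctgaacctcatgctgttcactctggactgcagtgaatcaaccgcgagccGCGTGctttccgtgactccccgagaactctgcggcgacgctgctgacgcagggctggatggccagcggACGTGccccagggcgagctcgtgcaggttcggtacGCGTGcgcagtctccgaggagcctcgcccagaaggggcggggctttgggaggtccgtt
Plin2: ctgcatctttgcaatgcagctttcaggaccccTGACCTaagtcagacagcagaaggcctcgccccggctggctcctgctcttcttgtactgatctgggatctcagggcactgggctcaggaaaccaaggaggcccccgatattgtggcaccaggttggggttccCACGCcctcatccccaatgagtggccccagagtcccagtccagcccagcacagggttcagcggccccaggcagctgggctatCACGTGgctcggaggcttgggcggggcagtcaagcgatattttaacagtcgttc
Ppard: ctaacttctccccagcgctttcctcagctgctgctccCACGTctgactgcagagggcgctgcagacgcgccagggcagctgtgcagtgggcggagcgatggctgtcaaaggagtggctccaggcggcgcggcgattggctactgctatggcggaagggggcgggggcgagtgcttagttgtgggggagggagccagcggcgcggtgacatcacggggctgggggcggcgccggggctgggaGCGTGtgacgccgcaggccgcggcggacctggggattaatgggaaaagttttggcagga
Pparg: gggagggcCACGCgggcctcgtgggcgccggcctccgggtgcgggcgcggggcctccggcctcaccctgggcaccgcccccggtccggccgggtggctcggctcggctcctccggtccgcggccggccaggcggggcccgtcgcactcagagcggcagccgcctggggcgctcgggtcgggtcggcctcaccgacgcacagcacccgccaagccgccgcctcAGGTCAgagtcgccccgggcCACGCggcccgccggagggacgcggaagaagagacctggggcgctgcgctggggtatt
In the Hilpda window ACGTG lies at -43 from the start site and GCGTG at -111 and -8. In the Plin2 window ACGTG lies at -3 and, overlapping it on the opposite strand, at -4, with GCGTG at -86 and AGGTCA at -218. In the Ppard window ACGTG lies at -213 and GCGTG at -9, and in this Pparg window AGGTCA lies at -28 and GCGTG at -8 and -242. Windows of other start sites of Hilpda and Pparg are not printed and held fewer matches. The Hilpda window from chr6:29272238 holds GCGTG at 28. The Pparg window from chr6:115362099 holds AGGTCA at -9, and that from chr6:115421816 holds no match. Such matches are common: of 32851 mouse promoter windows of this length, 16.3% hold AGGTCA, 19.6% ACGTG and 32.4% GCGTG. The direct repeat of AGGTCA with 1 base between is in 0.0396% of them and in none of the windows matched for these genes. Angptl4, Fabp4, Fabp5 and Lpl had no window in the table. A match describes letters only.

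Cpt1a encodes the enzyme that admits long-chain fatty acids to mitochondria for oxidation. The brighter of its 2 probes stood at 5.04, 5.26, 5.27 and 5.26 in wild-type controls, at 5.16, 5.16, 5.28 and 5.24 in wild-type cells with tumour material, at 5.70, 4.75 and 4.83 in transgenic controls and at 4.46, 4.58 and 4.16 in transgenic cells with tumour material. Both wild-type groups overlapped, the transgenic controls spread to either side of them, and the transgenic tumour replicates were the lowest. The difference with tumour material was 0.00 (SE 0.19) in wild-type and -0.63 (SE 0.25; -0.43 within slide 2) in transgenic cells, the latter -0.31 without slide column 4. With tumour material the genotypes differed by -0.74 (SE 0.25; -0.84 within slide 2), and by -0.41 (SE 0.24) on the dimmer probe, without overlap on either. In control medium the genotypes differed by -0.11 (SE 0.20), or -0.37 without slide column 4, 0.09 without transgenic control replicate 2 and -0.44 without transgenic control replicate 1, the highest of its group on both probes.

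Pdk4 encodes a kinase that keeps pyruvate out of the citric acid cycle when fatty acids are burned. Its 1 probe gave signals of 3.59 to 17.0 and was not well above background on any array, so no fold is given.

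Of the 9 genes tested, the fit (limma, adjusted p under 0.05) called 3 higher and 4 lower in wild-type cells with tumour material, beside 23.2% and 16.8% of all genes. In transgenic cells it called 2 higher, Ppard and Hilpda, and 2 lower, Pparg and Angptl4, beside 15.1% and 10.2%. Between genotypes in control medium it called Plin2 higher and Ppard lower in transgenic cells, beside 3.59% and 5.25%. With tumour material it called Fabp4 and Lpl higher and Angptl4 and Hilpda lower, beside 1.97% and 2.56%. The same 4 genes were called for the difference between the 2 responses, beside 1.02% and 0.928%. The fit covers all genes, these among them, but the contrasts took part in their choice, so their p-values are not given and nothing is read from the counts.

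Another 184 genes of fatty acid metabolism in 11 lists were tested with limma, and 140 of them passed the filter on dim probes. The lists were drawn up with earlier results of these data known, so their shares describe these data and are no independent test. All genes here are the 15835 entries tested, of which 10974 had a symbol. In wild-type cells with tumour material 23 rose and 45 fell, 16.4% and 32.1% of those tested beside 23.2% and 16.8% of all genes, with a median difference of -0.18 against 0.05. With quantile scaling 18 rose and 55 fell. In mitochondrial oxidation 9 of 25 fell and 0 rose, in peroxisomal oxidation 7 of 16 fell and 1 rose, in fatty acid synthesis 7 of 15 fell and 1 rose, and in lipolysis 4 of 7 fell and 1 rose. In transgenic cells 15 rose and 27 fell, beside 15.1% and 10.2% of all genes, with a median of -0.05 against 0.06, and the same lists held 5, 2, 3 and 4 falls. Without transgenic tumour replicate 3 the calls in transgenic cells numbered 25 in place of 42.

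**Figure D3:**
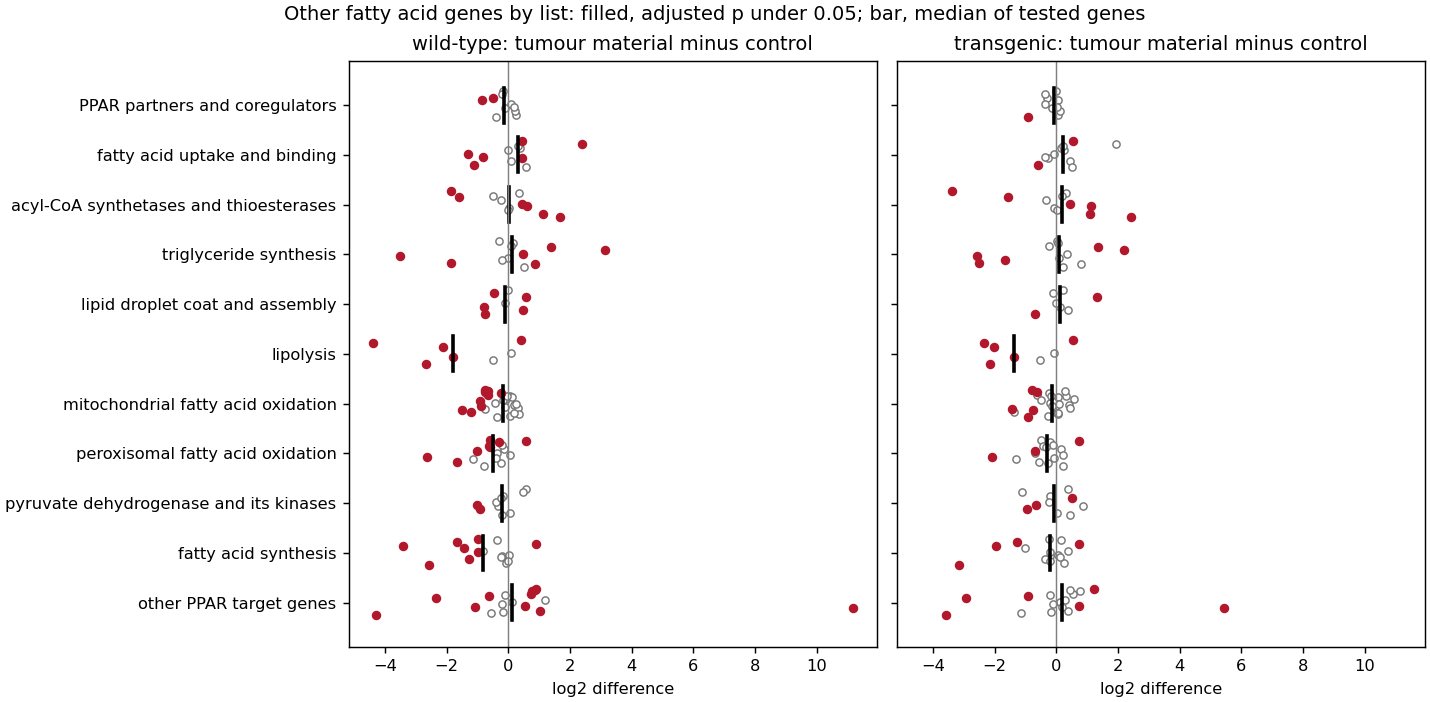
Log2 differences with tumour material (x axis) of the 140 other fatty acid genes by list (y axis), in wild-type and in transgenic cells. Filled points have an adjusted p under 0.05 (limma) and bars are list medians, which for lipolysis are -1.80 in wild-type and -1.37 in transgenic cells.

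Among PPAR partners and coregulators, 0 of 10 rose and 2 fell in wild-type cells, Rxra and Ncoa2, and 0 rose and 1 fell in transgenic cells. Ppara, the PPAR of liver, was at 0.21 (SE 0.12, adjusted p = 0.186) and 0.13 (SE 0.15, adjusted p = 0.583) in wild-type and transgenic cells. Rxra, a retinoid X receptor, was at -0.84 without the transgene (SE 0.30, adjusted p = 0.0465) and at -0.50 with normexp. That call was lost without wild-type control replicate 2 or 3, any wild-type tumour replicate or either transgenic tumour replicate, with an adjusted p of up to 0.369 and a difference of -0.40 without wild-type control replicate 3. Rxrb, its close relative, did not pass in wild-type cells, at -0.39 (SE 0.20, adjusted p = 0.136), and fell by 0.92 with the transgene (SE 0.26, adjusted p = 0.0203). The transgenic call was lost without replicate 3 of the transgenic (0.0891) or wild-type (0.0552) tumour cells.

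In uptake and binding, 3 of 11 rose and 3 fell in wild-type cells and 1 rose and 1 fell in transgenic cells. Cd36, a scavenger receptor that takes up fatty acids, was at 0.43 in wild-type cells (SE 0.14, adjusted p = 0.0307). That call was lost without replicate 1 or 3 of the wild-type control or tumour cells or transgenic tumour replicate 3, at up to 0.136. In transgenic cells Cd36 was at -0.27 (SE 0.18, adjusted p = 0.321). The binding proteins Fabp7 and Fabp3 moved apart in wild-type cells, Fabp7 by 2.39 (SE 0.53, adjusted p = 0.00375) and Fabp3 by -1.32 (SE 0.32, adjusted p = 0.00604).

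Of the acyl-CoA synthetases and thioesterases, 4 of 11 rose and 2 fell in each genotype. Acsl1, which activates fatty acids by joining them to coenzyme A, rose by 1.69 (SE 0.13, adjusted p = 1.59e-06) in wild-type and 2.41 (SE 0.17, adjusted p = 1.85e-06) in transgenic cells.

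In triglyceride synthesis, 4 of 12 rose and 2 fell in wild-type cells, and 2 rose and 3 fell in transgenic cells. Gpat3, an acyltransferase of the first step, rose by 3.15 in wild-type cells (SE 0.20, adjusted p = 3.18e-07; 1.61 with normexp), with 2 of 4 control arrays well above background. In transgenic cells no control array was, and it was at least 4.5-fold higher (adjusted p = 9.01e-05). Such a bound sets the bright group's mean against the lowest signal well above background, or the dim probe's own where higher. Agpat3, an acyltransferase of the next step, rose by 1.37 (SE 0.20, adjusted p = 0.000187) and 1.36 (SE 0.26, adjusted p = 0.00244).

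Lpin1, a phosphatidate phosphatase, fell by 3.50 in wild-type cells (SE 0.38, adjusted p = 2.09e-05; -1.28 with normexp), with 1 of 4 tumour arrays well above background. It was also called lower in transgenic cells, a call lost without transgenic tumour replicate 3 (0.0537). The enzymes of the last step did not pass in wild-type cells, Dgat1 at 0.15 (SE 0.18, adjusted p = 0.523) and Dgat2 at -0.19 (SE 0.38, adjusted p = 0.717). In transgenic cells Dgat1 was at 0.07 (SE 0.23, adjusted p = 0.859) and Dgat2 at -1.65 (SE 0.49, adjusted p = 0.0283), a call lost without transgenic tumour replicate 3 (0.186) or wild-type control replicate 3 (0.0576).

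Of the droplet coat and assembly genes, 2 of 7 rose and 3 fell in wild-type cells, and 1 rose and 1 fell in transgenic cells. Hsd17b11, a dehydrogenase found on droplets, fell by 0.75 (SE 0.10, adjusted p = 0.000134) and 0.69 (SE 0.13, adjusted p = 0.0028). Of the lipolysis genes, 1 of 7 rose and 4 fell in each genotype. Mgll, the monoglyceride lipase, fell by 4.38 in wild-type macrophages (SE 0.45, adjusted p = 1.5e-05) and by 2.35 in transgenic ones (SE 0.59, adjusted p = 0.0126), the latter call being lost without transgenic control replicate 3 (0.167) or transgenic tumour replicate 3 (0.101). Lipa, the lysosomal acid lipase, fell by 2.68 (SE 0.15, adjusted p = 9.63e-08) and 2.15 (SE 0.19, adjusted p = 9.67e-06). Pnpla2, the adipose triglyceride lipase that Hilpda inhibits, did not pass, at -0.51 (SE 0.20, adjusted p = 0.0587) and -0.52 (SE 0.26, adjusted p = 0.171).

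In mitochondrial oxidation Hadh, a dehydrogenase of the beta-oxidation cycle, fell by 1.51 in wild-type macrophages (SE 0.13, adjusted p = 2.84e-06). It was called lower in transgenic ones as well. Cpt2, the partner of Cpt1a on the inner membrane, had a wild-type difference of -0.66 (SE 0.21, adjusted p = 0.0274), which was -0.31 with normexp. That call was lost without wild-type control replicate 1 or 2, wild-type tumour replicate 2 or transgenic tumour replicate 3, at up to 0.0809. Acadl, the long-chain dehydrogenase, did not pass in either genotype, at -0.42 (SE 0.19, adjusted p = 0.109) and -0.22 (SE 0.25, adjusted p = 0.574), nor did Cpt2 in transgenic cells, at -0.62 (SE 0.28, adjusted p = 0.129).

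In the peroxisomal list Pex11a, a factor of peroxisome division, rose in transgenic cells by 0.75 (SE 0.13, adjusted p = 0.00128). It was called higher in wild-type cells as well. The transporter Abcd2 was well above background on no tumour array, and was at least 1.64-fold lower in wild-type (adjusted p = 2.23e-05) and at least 1.69-fold lower in transgenic cells (adjusted p = 0.00169), where 1 of 3 control arrays measured it.

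Of the pyruvate dehydrogenase genes, 0 of 10 rose and 2 fell in wild-type cells, and 1 rose and 2 fell in transgenic cells. Pdp2, a phosphatase that works against the Pdk kinases, fell by 1.03 (SE 0.10, adjusted p = 1.22e-05) and 0.65 (SE 0.14, adjusted p = 0.00438). Pdk2 fell by 0.91 in wild-type cells (SE 0.20, adjusted p = 0.00334; -0.46 with normexp). It was also called lower in transgenic cells. That call was lost without transgenic control replicate 3 (0.0612), transgenic tumour replicate 2 (0.0624) or wild-type control replicate 3 (0.0638). Pdk1, which was dim, did not pass in wild-type cells, at 0.48 (SE 0.44, adjusted p = 0.421).

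In fatty acid synthesis the synthase Fasn was well above background on no tumour array, and was at least 2.42-fold lower in wild-type (adjusted p = 0.000216) and at least 3.48-fold lower in transgenic cells (adjusted p = 0.000654). Acss2, which activates acetate, was at least 10.5-fold lower in wild-type cells (adjusted p = 4.24e-05). It was also called lower in transgenic cells, a call lost without replicate 3 of the transgenic (0.19) or wild-type (0.0542) tumour cells. The desaturase Scd2 did not pass, at -0.81 (SE 0.35, adjusted p = 0.0897) and 0.37 (SE 0.46, adjusted p = 0.613).

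Of the other PPAR target genes, 7 of 17 rose and 4 fell in wild-type cells, beside 23.2% and 16.8% of all genes. In transgenic cells 3 rose and 3 fell, beside 15.1% and 10.2%. Of the wild-type rises, those of Aqp7, Gk, Tgm2, Nr1h3 and Abcg1 each lost their call without at least 1 replicate. The adjusted p reached 0.324 for Nr1h3 without wild-type control replicate 3. Abcg1 also lost its transgenic call without some replicates, while Abca1 and Arg1 kept theirs in both genotypes. Arg1, the arginase of alternatively activated macrophages, was well above background on no control array, and was at least 699-fold higher in wild-type (adjusted p = 3.74e-12) and at least 18.3-fold higher in transgenic cells (adjusted p = 2.56e-08). Cyp27a1, a sterol hydroxylase, was at least 13.1-fold lower in wild-type cells (adjusted p = 6.97e-09) and fell by 3.59 in transgenic cells (SE 0.22, adjusted p = 7.44e-07; -1.87 with normexp).

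**Figure D4:**
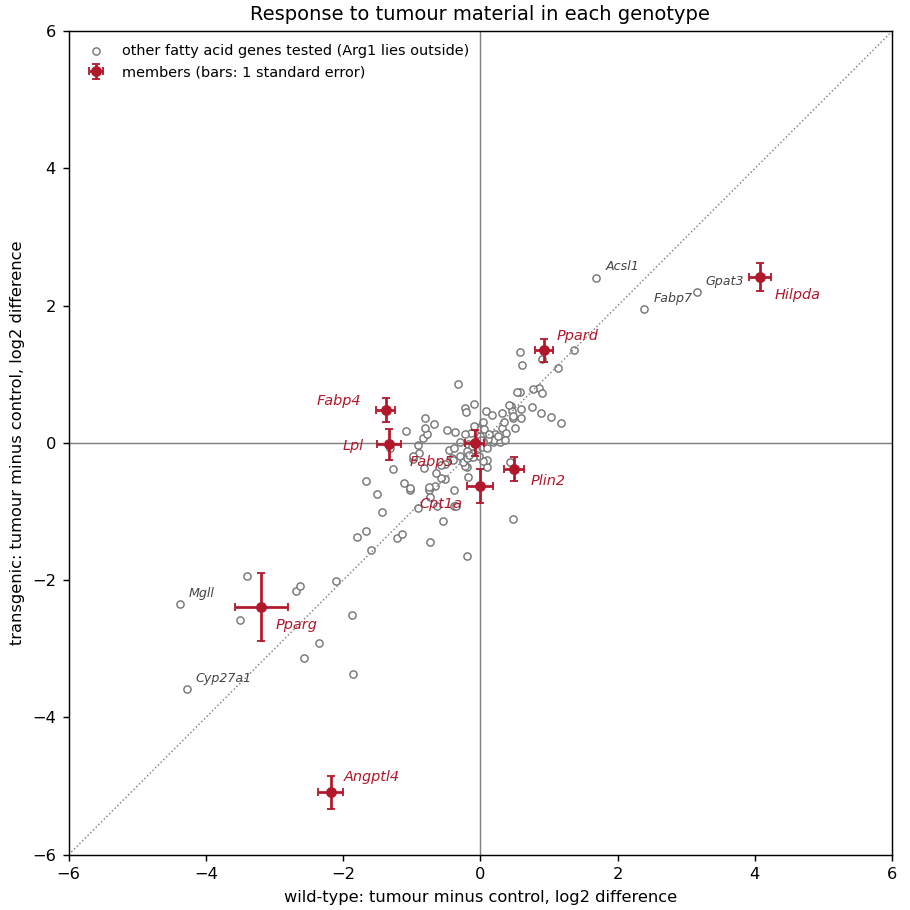
Log2 difference with tumour material in wild-type cells (x axis) against transgenic cells (y axis) for the 9 measured genes, with bars of 1 standard error, and for the other fatty acid genes tested, of which Arg1 lies outside the axes. Fabp4, at -1.38 and 0.48, and Lpl, at -1.33 and -0.02, lie above the line of equal differences, and Angptl4, at -2.18 and -5.09, and Hilpda, at 4.08 and 2.42, below it.

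Between genotypes in control medium 0 of 140 were higher and 4 lower in transgenic cells (limma), beside 3.59% and 5.25% of all genes, and against 11 and 20 at an unadjusted p under 0.05. Cd5l, a secreted scavenger protein of macrophages, was at -1.83 (SE 0.24, adjusted p = 0.000752; -2.06 and -1.28 within slides). Abca1, a cholesterol exporter, was at -0.90 (SE 0.13, adjusted p = 0.00172; -0.85 and -1.03 within slides). The malic enzyme Me1 was at -0.91 (SE 0.18, adjusted p = 0.00854), a call lost without wild-type control replicate 3 (0.1). Acsl4, a synthetase for polyunsaturated fatty acids, was at -0.71 (SE 0.18, adjusted p = 0.03), with -0.90 and -0.26 within slides, a call lost without replicate 1 or 3 of the wild-type tumour cells, wild-type control replicate 1, transgenic control replicate 2 or transgenic tumour replicate 3, at up to 0.245. Without transgenic control replicate 1 there were 23 calls in place of 4, and 9 without transgenic control replicate 2 or 3. With normexp there were 5 higher and 9 lower.

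With tumour material 6 were higher and 4 lower in transgenic cells, beside 1.97% and 2.56% of all genes. Tsc22d3, the glucocorticoid-induced leucine zipper, was at 1.77 (SE 0.20, adjusted p = 0.000499; 1.89 within slide 2). Arg1 was at -5.66 (SE 0.22, adjusted p = 9.33e-08; -5.68 within slide 2), measured on all tumour arrays, and Cd5l at -2.41 (SE 0.29, adjusted p = 0.000604; -2.29 within slide 2). These 3 calls held without each replicate in turn. The other 7 genes, Mgll, Ehhadh, Cyp27a1, Acaca and Echs1 on the higher side and Gpat3 and Me1 on the lower, all lost their calls without wild-type tumour replicate 3, and all but Acaca also without transgenic tumour replicate 3. For Mgll, at 2.62 (SE 0.59, adjusted p = 0.0259; 1.61 with normexp), these adjusted p-values were 0.302 and 0.307. Without either replicate there were 4 calls in place of 10, and 28 or 20 without transgenic control replicate 1 or 2.

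The difference between the 2 responses passed for 3 of the 140 genes, 2 higher and 1 lower, beside 1.02% and 0.928% of all genes. Echs1, an enoyl-CoA hydratase of mitochondrial oxidation, had mean levels of 5.22 and 4.57 in wild-type control and tumour cells and 4.92 and 5.15 in transgenic ones, and its responses differed by 0.95 (SE 0.15, adjusted p = 0.00622). That call was lost without wild-type tumour replicate 3 (0.113) or transgenic tumour replicate 3 (0.118). Tsc22d3 had means of 3.31 and 2.20 and of 3.73 and 3.74, and its responses differed by 1.26 (SE 0.26, adjusted p = 0.029). Its call was lost without wild-type control replicate 1 or 2, wild-type tumour replicate 1 or 3 or either transgenic tumour replicate, at up to 0.336. The third was Arg1, whose control arrays were not well above background in either genotype, so that its fitted value of -5.72 is no measured difference of responses. There were 16 and 6 calls without transgenic control replicate 1 or 2, and 1 without wild-type tumour replicate 3 or transgenic tumour replicate 3.

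The genes whose levels ran most like those of a member were found by Pearson correlation over the 11 replicates, which share 4 groups, so the values only describe likeness. Pparg was nearest to Gm5547 at 0.992, Tmtc4 at 0.991 and Slc25a13 at 0.99. Ppard was nearest to Commd8 at 0.993, Acsl4 at 0.99 and Gm9079 at 0.989. Fabp4 was nearest to Ebpl at 0.968, Paox at 0.967 and Idh2, a mitochondrial isocitrate dehydrogenase, at 0.924. Cpt1a was nearest to Gclc, a glutathione synthesis gene, at 0.97, Mturn at 0.947 and Il10ra at 0.944. Plin2 and Fabp5, whose levels spanned little, reached only 0.88, with Hnrnpa2b1 and Dhx9.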

How the data were processed

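Gene expression was measured on Agilent single-colour 8x60K mouse arrays from 200 ng RNA. Spot intensities were deposited as scanner output, made per the file headers and the submitters' processing notes with Agilent Feature Extraction 10.7.3.1, with background subtracted and spatial trends removed within the array and no scaling between arrays. A table of log2 values of the same arrays was deposited by the authors, with a method not given in the sources used here. It correlated with the scanner values at 0.9987 or more and served as an alternative.

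Here log2 intensity minus the log2 of the array's 75th percentile over non-control spots was used. Outlier spots were left out and spots of a probe averaged. A probe was kept where every array of some group had it well above background (20208 of 55634), with the brightest per gene. Symbols came from accessions through the RefSeq table of GRCm38.p6, and 28311 probes had 1 symbol. Of the 15835 entries counted as genes, 10974 had a symbol. The rest were accessions with no single symbol, and shares of all genes include them. The fit used limma 3.58.1 in R 4.3.3 with group and slide as terms and repeat arrays as a random block (correlation 0.072), with Benjamini-Hochberg adjustment over 15835 genes and a threshold of 0.05.

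The genes described and the lists were chosen with earlier results of these data known. Other genes were named by rule: per comparison the 5 largest rises and 5 largest falls without overlap of replicates, up to 2 genes per list, and 13 fixed names, and not every gene so named is described. The 2 responses share no samples, but each genotype comparison shares its groups with them. Same-numbered replicates did not deviate together (correlations of -0.216 to 0.202), so the numbers were not taken to pair samples. The normexp alternative (offset 50) used median spot signals, in place of the mean signals planned, since the files used hold no mean signal. Other alternatives were quantile scaling, no slide term, no filter, averaged repeat arrays, a block for the replicate number, each slide alone, leaving out slide column 4, and leaving out each replicate. The number of arrays limits the precision.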

Additional observations from a re-analysis of the deposited data

Results flagged for a closer look

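The response to tumour material differed between genotypes by limma's test of that difference for Tsc22d3, by 1.26 (SE 0.26, adjusted p = 0.029), and Echs1, by 0.95 (SE 0.15, adjusted p = 0.00622), as transgenic minus wild-type log2 response. Arg1 passed too, at -5.72, but its control arrays were not well above background in either genotype, so both responses are bounds and this is no measured difference. With tumour material, where all arrays measured it, Arg1 differed by -5.66 (SE 0.22). Fabp4 had fitted differences of opposite sign in the genotypes. Every wild-type tumour replicate lay below and every transgenic tumour replicate above the controls of its genotype. The transgenic difference was small and moved with the processing: 0.48 (SE 0.18), 0.25 within slide 2, 0.22 without slide column 4, 0.28 with quantile scaling and 0.76 without transgenic control replicate 3. The difference between its responses was 1.86 (SE 0.23), given with no p-value because these levels took part in the choice of the gene. Plin2 also had opposite signs, at 0.49 (SE 0.14) in wild-type cells, where replicates overlapped, and -0.38 (SE 0.18) in transgenic cells. Its responses differed by -0.87 (SE 0.22), likewise given with no p-value.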

How the results depend on the processing

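The number of all genes called was 6320 for the wild-type response, 4000 for the transgenic response, 1399 and 718 between genotypes in control medium and with tumour material, and 308 for the difference between responses. Of the other fatty acid genes 68, 42, 4, 10 and 3 were called. Slide 2 alone, whose spread comes from the 3 transgenic tumour arrays, gave 771, 1771, 0, 0 and 0 genes (limma; 2124, 1771 and 1380 at an unadjusted p under 0.05 for the last 3), and 11, 19, 0, 0 and 0 fatty acid genes (18, 27 and 18 unadjusted). Slide 1 alone could give only the wild-type response and the genotype difference in control medium, where it called 7 fatty acid genes. No filter gave 914 genes in control medium and 185 for the difference between responses, and averaging repeat arrays gave 768 and 171. No slide term gave 1116 genes and 20 fatty acid genes with tumour material. Without slide column 4 there were 1584 genes with tumour material and 827 for the difference between responses, and 16, 24 and 12 fatty acid genes in the last 3 comparisons. Normexp gave 14 fatty acid genes in control medium. Quantile scaling moved the balance of all calls from 3667 higher and 2653 lower to 3077 and 3251 in wild-type cells, and from 2391 and 1609 to 1971 and 1915 in transgenic cells. The cause of these moves was not tested.

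Leaving out each replicate in turn gave 4017 to 7957, 2317 to 5284, 423 to 2709, 132 to 2062 and 43 to 1198 genes, and 50 to 81, 25 to 56, 3 to 23, 4 to 28 and 1 to 16 fatty acid genes. The lowest gene counts came without wild-type tumour replicate 3, transgenic tumour replicate 3, wild-type control replicate 3 and, for the last 2, transgenic tumour replicate 3. The highest of the last 3 came without transgenic control replicate 1. Other gene counts that moved by over 1.5 times were 890 and 791 in control medium without wild-type control replicate 1 and transgenic tumour replicate 3, 476, 150 and 1217 with tumour material without wild-type tumour replicate 1, wild-type tumour replicate 3 and transgenic control replicate 2, and 181, 192 and 48 for the difference between responses without wild-type control replicate 1 and wild-type tumour replicates 1 and 3. With the replicate block the counts were 6161, 3673, 1122, 534 and 276 genes and 66, 39, 3, 9 and 2 fatty acid genes. No direction of a called result reversed under these alternatives. Dim probes near background, such as those of Angptl4 in transgenic tumour cells, limit the size of their differences.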
